A study of Danio rerio with 8 samples.

Results

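The genes described here move calcium into, within and out of the sarcoplasmic reticulum, the internal calcium store of the heart muscle cell. They are 10 genes chosen by symbol out of the 21234 genes of the count table: atp2a2a, ryr2a, ryr2b, casq2, fkbp1b, pln, trdn, jph2, slc8a1a and hrc. They were compared between 4 libraries of adult zebrafish heart cells with Hmga1a overexpression and 4 libraries labelled control. Hmga1a is a chromatin protein that binds DNA through AT-hooks. Every fish, controls included, carried the cmlc2:dsred reporter, in which the promoter of the cardiac myosin light chain gene myl7 (cmlc2) drives a red fluorescent protein, and every library was labelled 14 days post tamoxifen. The hearts were uninjured, and ventricles were dissociated with collagenase and TrypLE into cells that the labels call cardiomyocytes. The labels do not give the promoter of the overexpression construct, the control genotype beyond the word control, or the number of fish behind a library. Whether libraries came from separate fish is therefore unknown, and a p-value here is set against library-to-library spread that may be technical.

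With each heartbeat a small entry of calcium opens the ryanodine receptor, the release channel of the sarcoplasmic reticulum, and the released calcium triggers contraction. The SERCA pump then returns calcium to the store, under the brake of phospholamban, while the sodium-calcium exchanger of the surface membrane removes the rest from the cell. Inside the store calsequestrin and the histidine-rich calcium-binding protein hold calcium near the channel, triadin ties calsequestrin to the channel, calstabin binds the channel from the cytosol, and junctophilin holds the store close to the surface membrane.

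Library totals were 302157 to 572295 counts with overexpression and 49598 to 352807 in controls, where control 2 was the smallest. Mitochondrial RNA made up 28.1% to 35.1% of counts with overexpression and 44.9% to 67.7% in controls. The transcript of hmga1a stood at 80.7, 132.8, 128.6 and 130.6 CPM (molecule counts scaled to library size by TMM) in overexpression libraries 1 to 4, against 127.4, 30.2, 75.01 and 58.9 CPM in controls 1 to 4, and its log2 fold change of 0.47 ± 0.30 (SE) did not pass edgeR's test (adjusted p = 0.177), so the count table alone does not check the overexpression label. Of the genes tested, the contractile cardiomyocyte list of 15 had 9 of 9 higher with overexpression, beside 30.4% of all genes tested. For 7 of the 9 the groups did not overlap, while those of tpm4a and actn2b did. The summed level of the list was 31760 to 42240 CPM with overexpression and 12270 to 23230 CPM in controls. Lower with overexpression were all 3 tested of 10 listed endothelial genes (summed list level 230.2 to 409.8 CPM with overexpression and 1173 to 1608 CPM in controls, most of it aqp8a.1), the 1 tested of 10 fibroblast genes (109.1 to 141.1 CPM with overexpression and 607 to 1265 CPM in controls, most of it fn1b) and all 5 tested of 10 leukocyte genes (1531 to 2048 CPM with overexpression and 3801 to 7549 CPM in controls, most of it cd74a). Among these lower genes fli1a and mpeg1.1 had overlapping groups, and 29.2% of all genes tested were called lower. Of 6 erythrocyte genes the 1 tested, cahz, was higher with overlapping groups (log2 fold change 1.43, adjusted p = 0.0046, edgeR). Of 7 smooth muscle and pericyte genes the tested acta2 and tagln were higher (summed list level 1388 to 1893 CPM with overexpression and 461.5 to 1177 CPM in controls, most of it tagln), while the untested myh11a had 8 counts with overexpression and 39 in controls, pdgfrb had 1 with overexpression and 12 in controls, and cspg4 had 9 with overexpression and 16 in controls. Of the 3 atrial genes, myh6 was lower, at 11.8 ± 5.18 CPM with overexpression and 185.2 ± 135.3 CPM in controls (SD, n = 4 each), a log2 fold change of -4.00 (adjusted p = 2.8e-08, edgeR). The atrial list's tbx5a was higher with overlapping groups (1.46, adjusted p = 0.0012, edgeR) and nr2f1a was at 0. The endothelial marker cdh5 and the leukocyte marker coro1a were at 0 in every library. These lists and the mitochondrial share moved in the same libraries as every result below, and their part in those results was not tested. In bulk samples fewer cells of a type and less RNA per cell cannot be told apart.

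Across the 2501 genes that passed the filter on low counts, 30.4% were higher and 29.2% lower with overexpression at an adjusted p under 0.05 by the quasi-likelihood test of edgeR, so a call in either direction was common in these libraries. In 25.7% every overexpression library lay above every control and in 17.6% every one lay below. Of the 10 calcium genes, 5 passed the filter, of which 3 were called higher (atp2a2a, casq2 and fkbp1b), 1 lower (ryr2b) and 1 was not called (hrc). The other 5 genes had at most 3 counts in any library. The same share of all genes tested was 38.5% higher and 19.2% lower when only library totals were used, 6.91% higher and 7.66% lower without a filter on low counts, 22.4% higher and 31% lower with libraries thinned to the smallest, and 1.52% higher and 68.9% lower when libraries were scaled on 9 contractile genes, called relative to contractile genes below.

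The calcium pump gene atp2a2a (entry LL0000001594), the zebrafish SERCA2 that refills the store, was higher with overexpression. It stood at 2418, 2764, 2851 and 2424 CPM in overexpression libraries 1 to 4, against 971, 1418, 1173 and 1126 CPM in controls 1 to 4. Every overexpression library lay above every control, and within each group the levels were close to each other. The means were 2614 ± 226 CPM with overexpression and 1172 ± 185 CPM in controls (SD, n = 4 each), a 2.30-fold difference (log2 fold change 1.20 ± 0.14, adjusted p = 2.4e-08, edgeR), but relative to contractile genes the value was -0.23 (adjusted p = 0.274). With libraries thinned to the smallest it was 0.54 (adjusted p = 0.0109, edgeR). In that fit of 510 genes the median shift of log2 fold changes from the main fit was -0.61. Up to 33.4% of the 4096 possible molecular identifiers were used by atp2a2a in a library, and at most 6.23% by any other gene of the set, so none was near the ceiling of the counting method. The paralogue atp2a2b went the other way, at 21.6 to 38.0 CPM with overexpression and 30.2 to 69.9 CPM in controls (-1.12 ± 0.36, adjusted p = 0.0077, edgeR). That difference did not pass with library totals alone (-0.76, adjusted p = 0.0838) or without a filter on low counts (-0.89, adjusted p = 0.151). Near-identical copies can share reads, so how counts were divided between the pair is uncertain. Phospholamban, the gene pln (pln1 in RefSeq), was listed at 0 in all 8 libraries.

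**Figure D1:**
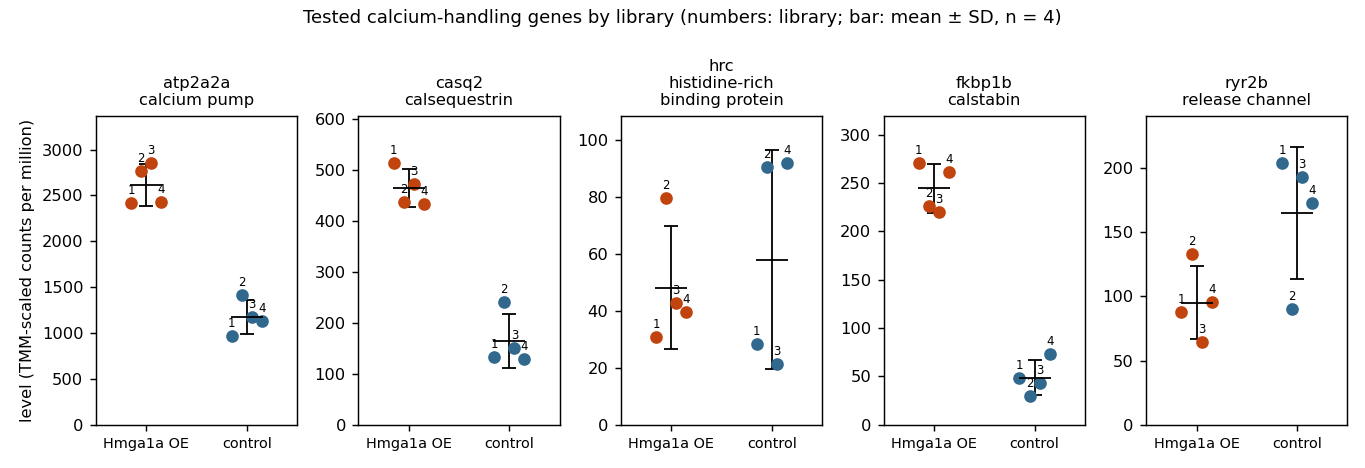
Level in TMM-scaled CPM (y axis, from 0) of the 5 calcium-handling genes that were tested, in each Hmga1a overexpression library (left, orange) and each control (right, blue); the number at a point is the library, and the bar is the mean ± SD of 4 libraries. For atp2a2a, casq2 and fkbp1b all overexpression points lie above all controls, for ryr2b only control 2 lies among the overexpression points, and for hrc the groups overlap.

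Of the calcium-storing proteins, calsequestrin was higher and the histidine-rich protein was not called. The calsequestrin gene casq2 (entry LL0000004944), the main calcium buffer of the cardiac store, stood at 512.5, 436.6, 471.6 and 433 CPM in overexpression libraries 1 to 4, against 133.1, 241.4, 150 and 128.8 CPM in controls 1 to 4. The groups did not overlap, and control 2, which rests on 8 counts, was the highest control. The log2 fold change was 1.69 ± 0.20 (adjusted p = 3.8e-08, edgeR), 0.98 with libraries thinned to the smallest (adjusted p = 0.0332), and 0.20 relative to contractile genes (adjusted p = 0.465). The other calsequestrin gene of the table with enough counts, casq1b, known in mammals as the skeletal muscle form, rose as well, to 182.7, 172.7, 147 and 128.9 CPM with overexpression, against 31.1, 60.3, 21.4 and 58.9 CPM in controls (2.00 ± 0.32, adjusted p = 4e-06, edgeR), and was at 0.54 relative to contractile genes (adjusted p = 0.171). Of the other skeletal muscle genes in the table, ryr1a, tnnt3b and myhz2 were listed at 0 in every library, and ryr1b had 8.26 to 21.4 CPM with overexpression and 0 to 22.1 CPM in controls, with too few counts for a test.

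The gene hrc (entry LL0000012314) varied widely inside each group. It stood at 30.9, 79.7, 42.9 and 39.7 CPM in overexpression libraries 1 to 4, against 28.3, 90.5, 21.4 and 92.0 CPM in controls 1 to 4. Overexpression 2 and controls 2 and 4 were high, and the groups overlapped. The control 2 value rests on 3 counts, with an exact Poisson interval of 18.7 to 264.5 CPM that covers counting error only. The log2 fold change was -0.04 with a 95% interval of -0.91 to 0.83 (adjusted p = 0.945, edgeR), so both directions lay within the error. Relative to contractile genes hrc was called lower (-1.47, adjusted p = 0.0066, edgeR). The median of all genes tested there was -1.46, and 68.9% of them were called lower. Triadin (trdn) had 3 counts in overexpression 2, 2 counts in control 1 and 0 in the other libraries, which is too few for a comparison.

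On the release side, the channel gene was lower and the gene of its binding partner higher. The ryanodine receptor gene ryr2b (entry LL0000024141), the heart's release channel, stood at 87.8, 132.8, 64.3 and 95.9 CPM in overexpression libraries 1 to 4, against 203.8, 90.5, 192.9 and 172.9 CPM in controls 1 to 4. Controls 1, 3 and 4 lay above every overexpression library, and control 2, with 3 counts and an exact Poisson interval of 18.7 to 264.5 CPM, lay among them. The means were 95.2 ± 28.4 CPM with overexpression and 165 ± 51.3 CPM in controls (SD, n = 4 each), a log2 fold change of -0.90 ± 0.25 (adjusted p = 0.0032, edgeR). Without control 2 it was -0.92 (adjusted p = 0.0018, edgeR). Relative to contractile genes it was -2.36 (adjusted p = 2.5e-06), in a setting where the median shift of all genes from the main fit was -1.47. With library totals alone it was -0.53, which did not pass (adjusted p = 0.135), as without a filter on low counts (-0.65, adjusted p = 0.115). The other ryr2 gene of the set, ryr2a, was listed at 0 in all libraries. The paralogue ryr3 was also lower, at 4.75, 29.9, 9.19 and 16.5 CPM with overexpression and 39.6, 120.7, 48.2 and 25.8 CPM in controls (-1.36 ± 0.50, adjusted p = 0.0215, edgeR). That call of ryr3 was lost with library totals alone (-1.02, adjusted p = 0.0912), without a filter (-1.16, 0.124), with the 6 libraries the authors compared (-0.86, 0.125), without control 2 (-1.14, adjusted p = 0.0622), without control 3 (-1.31, 0.0589), without overexpression 1 (-1.04, 0.0764) and without overexpression 3 (-1.18, 0.0656).

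The calstabin gene fkbp1b (entry LL0000010375), whose protein, FKBP12.6 in mammals, binds the ryanodine receptor and steadies its closed state, had the largest log2 fold change of the 5 tested genes. It stood at 270.5, 225.8, 220.5 and 261.1 CPM in overexpression libraries 1 to 4, against 48.1, 30.2, 42.9 and 73.6 CPM in controls 1 to 4. The groups lay far apart, although the control levels rest on 1 to 20 counts a library. The difference was 4.51-fold (2.17 ± 0.26, adjusted p = 3.4e-08, edgeR), and 0.71 on the log2 scale relative to contractile genes (adjusted p = 0.0441), so fkbp1b was the 1 gene of the set still called higher there. Its relative fkbp1aa, of the FKBP12 type, was at 317.9, 273.9, 290.9 and 327.2 CPM with overexpression and 181.2, 301.7, 176.8 and 220.7 CPM in controls. That difference was smaller (0.58 ± 0.20, adjusted p = 0.0135, edgeR) and was lost without control 1 (0.44, adjusted p = 0.102) and without control 3 (0.51, 0.0511). It turned to -0.88 relative to contractile genes and to -0.41 (adjusted p = 0.291, edgeR) with libraries thinned to the smallest. The median shift of all genes was -1.47 in the first of these settings and -0.61 in the second.

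The junction and exchanger genes could not be compared. Junctophilin (jph2) had 1 count in overexpression 2 and 0 elsewhere, and the exchanger gene slc8a1a was listed at 0 in all libraries. A count of 0 over a whole group allows up to 1.68 CPM with overexpression and 3.05 CPM in controls, for counting error only. A gene at 0 in the table is not shown to be silent, since myl7, whose promoter drives the reporter in these cells, had 1 count in all 8 libraries together, while dsRED itself reached 2274 to 3770 CPM with overexpression and 543.1 to 631.3 CPM in controls.

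Ratios of counts within a library do not depend on how libraries are scaled. Those to ryr2b, the gene called lower, used the genes called higher: atp2a2a for uptake, casq2 for storage and the channel partner fkbp1b. Mean differences above 0 in these ratios therefore follow from the choice of genes and are no separate result. The storage gene hrc, which was not called, was not set against ryr2b. The log2 ratio of atp2a2a to ryr2b was 4.74, 4.37, 5.40 and 4.63 in overexpression libraries 1 to 4, against 2.24, 3.59, 2.56 and 2.67 in controls 1 to 4. All overexpression libraries lay above all controls, and the means differed by 2.02 on the log2 scale, a 4.05-fold shift of pump over channel counts. For casq2 over ryr2b the ratios were 2.50, 1.71, 2.81 and 2.15 with overexpression and -0.59, 1.17, -0.35 and -0.42 in controls, a difference of 2.34 without overlap. For fkbp1b over ryr2b they were 1.59, 0.77, 1.72 and 1.42 with overexpression and -2.01, -1, -2.04 and -1.20 in controls, a difference of 2.94 without overlap. No test was made between these ratios. Each has 1 count added to both genes, which weighs most where counts are few. In control 2 there was 1 count of fkbp1b, 3 of ryr2b and 8 of casq2. The log2 ratio of casq2 to atp2a2a was -2.24, -2.66, -2.59 and -2.48 with overexpression and -2.83, -2.42, -2.92 and -3.09 in controls, where control 2 lay among the overexpression libraries and the difference was 0.32. The planned ratio to slc8a1a could not be formed, since that gene was at 0.

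The same genes were then set against the cardiac troponin gene tnnt2a, a pairing chosen after the values were seen. Tested contractile genes had log2 fold changes from 0.55 (actn2b) to 2.04 (myh7), with tnnt2a at 1.25. The differences below therefore depend on the contractile gene chosen. The log2 ratio of atp2a2a to tnnt2a was -1.65, -1.23, -1.62 and -1.47 with overexpression and -1.25, -1.58, -1.25 and -1.55 in controls, a difference of -0.08 with overlapping groups. The ratio of casq2 to tnnt2a differed by 0.24, also with overlap. The ratio of fkbp1b to tnnt2a was -4.81, -4.83, -5.30 and -4.67 with overexpression and -5.50, -6.18, -5.86 and -5.42 in controls, a difference of 0.83 without overlap. The ratio of ryr2b to tnnt2a was -6.39, -5.59, -7.02 and -6.09 with overexpression and -3.49, -5.17, -3.82 and -4.22 in controls, a difference of -2.10 without overlap. The gene tnnt2a used 50.3% to 62.8% of the identifiers with overexpression and 3.44% to 19.7% in controls, so more of its level rests on the correction for reused identifiers with overexpression.

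**Figure D2:**
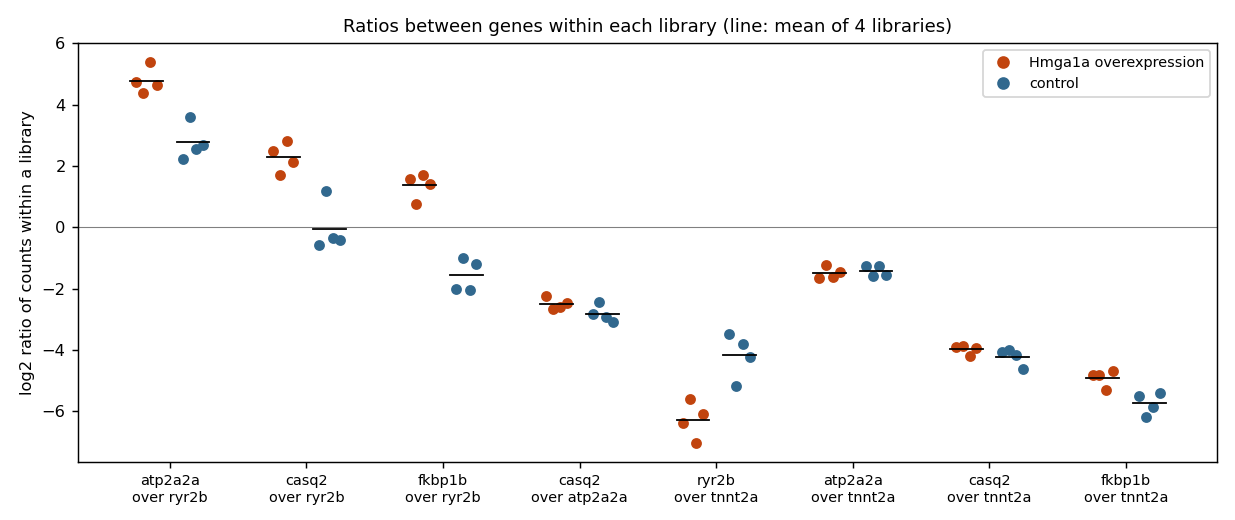
Log2 ratio of the counts of 2 genes within a library (y axis), for each Hmga1a overexpression library (orange, left of each pair) and each control (blue, right); the line is the mean of 4 libraries. The ratios of atp2a2a, casq2 and fkbp1b to ryr2b lie higher in all overexpression libraries, with mean differences of 2.02, 2.34 and 2.94, while atp2a2a over tnnt2a overlaps between the groups.

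Of 129 further genes of heart calcium cycling, 99 were in the table and 31 were tested, of which 15 were higher, 6 lower and 10 not called, beside 30.4% and 29.2% of all genes tested. Their median log2 fold change was 0.81, against 0.01 over all genes tested. DESeq2, with its own scaling, called 14 higher and 6 lower. Relative to contractile genes, 0 were higher (0 at an unadjusted p under 0.05, edgeR) and 12 lower, beside 1.52% and 68.9% of all genes tested. The 6 genes called lower under TMM lay from -3.17 for calr3a to -2.50 for hsp90b1 there. The median shift of all genes from the main fit was -1.47 in that setting. Their staying lower is therefore no separate check. The other 68 genes in the table had too few counts, among them 28 of 29 surface channels, exchangers, pumps and store-entry genes. The calls therefore cover tested genes only. The untested cacnb2a was at 1.65 to 4.98 CPM with overexpression and 18.4 to 90.5 CPM in controls. For pdia4 the levels were 6.13 to 11.6 CPM with overexpression and 21.4 to 62.3 CPM in controls. The untested fkbp1ab leaned the other way with overlap, at 19.0 to 49.0 CPM with overexpression and 5.36 to 30.2 CPM in controls. How many untested genes leaned each way was not counted.

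The calcium binders and folding helpers of the store and endoplasmic reticulum divided. Of 6 tested, 1 was higher, the casq1b gene given above, and 3 were lower, beside 30.4% and 29.2% of all genes tested. Those 3 were the calreticulin gene calr3a (54.6 ± 22.5 CPM with overexpression and 162.8 ± 98.7 CPM in controls, log2 fold change -1.73 ± 0.32, adjusted p = 4.9e-05, edgeR), the calnexin gene canx (106.3 ± 18.3 CPM with overexpression and 210.7 ± 57.6 CPM in controls, -1.05 ± 0.23, adjusted p = 0.00031) and the chaperone gene hsp90b1 (62.4 ± 20.5 CPM with overexpression and 129.8 ± 19.2 CPM in controls, -1.05 ± 0.29, adjusted p = 0.0023). The gene hsp90b1 did not pass with library totals alone (-0.68, adjusted p = 0.0665) or without a filter (-0.81, adjusted p = 0.0675). Values that were not called were those of calr3b (-0.40, adjusted p = 0.229) and pdia3 (-0.42, adjusted p = 0.119). The store sensor gene stim1a, which opens calcium entry when the store is empty, was lower, at 11.9, 14.9, 9.19 and 36.4 CPM with overexpression and 59.5, 30.2, 53.6 and 66.2 CPM in controls (-1.57 ± 0.42, adjusted p = 0.0022, edgeR).

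Calmodulin is the cytosolic calcium sensor that also binds the release channel. Of its genes 3 of 5 tested were higher, beside 30.4% of all genes tested. The gene calm2b stood at 1293, 1101, 1449 and 1273 CPM with overexpression and 370.9, 965.4, 412.6 and 636.5 CPM in controls (log2 fold change 1.28 ± 0.19, adjusted p = 2.8e-06, edgeR). The gene calm3a (1.75 ± 0.28, adjusted p = 4.2e-06) and calm1a (0.84 ± 0.24, adjusted p = 0.0034) were higher as well, while calm2a (0.57, adjusted p = 0.233) and calm3b (-0.47, adjusted p = 0.103) were not called. In calm3b every overexpression library, at 82.7 to 99.2 CPM, nevertheless lay below every control, at 120.7 to 139.3 CPM. Calmodulin copies can share reads. Relative to contractile genes calm2b was at -0.17, calm1a at -0.65 and calm3a at 0.27, and with libraries thinned to the smallest calm2b did not pass (0.50, adjusted p = 0.111).

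Over all genes tested, 30.4% were called higher and 29.2% lower. Of 8 tested kinase and phosphatase genes, 4 were higher and 0 lower (0 also at an unadjusted p under 0.05, edgeR). They were the calmodulin-dependent kinase genes camk2d2 (120.1 ± 8.80 CPM with overexpression and 47.7 ± 19.3 CPM in controls, log2 fold change 1.26 ± 0.30, adjusted p = 0.00072, edgeR), camk2g2 (1.1 ± 0.43, adjusted p = 0.0294) and camk2b1 (0.88 ± 0.34, adjusted p = 0.0257), and the phosphatase subunit gene ppp1cb (1.09 ± 0.24, adjusted p = 0.00029). All 4 were below 0 relative to contractile genes, from -0.59 to -0.23. The call of camk2g2 was lost without control 1 (0.74, adjusted p = 0.217), control 3 (1.08, 0.0611), control 4 (1.19, 0.0541) or overexpression 1 (0.98, 0.0755), and with DESeq2 (1.08, 0.0709). The call of camk2b1 was lost without control 1 (0.87, adjusted p = 0.0776), control 4 (0.89, 0.0644) or overexpression 4 (0.82, 0.0621). The calls leave out 9 untested genes of this role, of which 4 were at 0 in all libraries. Of the untested, the kinase gene prkacab was at 11.6 to 18.4 CPM with overexpression and 22.1 to 90.5 CPM in controls. Every overexpression library thus lay below every control, on 26 counts with overexpression and 25 in controls. The untested receptor gene adrb2b leaned the other way with overlap.

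Mitochondria take up part of the calcium of each beat. Of that route 4 of 5 tested genes were higher, beside 30.4% of all genes tested. The uniporter gene mcu, with 20 counts in each group, had too few for a test. Scaled to library size it was at 10.2 ± 5.62 CPM with overexpression and 16.9 ± 15.1 CPM in controls (SD, n = 4 each). The gene smdt1b, the EMRE subunit of the mitochondrial calcium uniporter, stood at 168.5, 124.5, 153.1 and 125.6 CPM with overexpression and 28.3, 90.5, 26.8 and 44.2 CPM in controls (log2 fold change 1.96 ± 0.33, adjusted p = 7.6e-06, edgeR). The outer membrane channel genes vdac2 (3014 ± 77.8 CPM with overexpression and 1111 ± 302.7 CPM in controls, 1.52 ± 0.15, adjusted p = 1.4e-09), vdac3 (1.41 ± 0.16) and vdac1 (1.82 ± 0.30) were higher too, and letm1 was not called (0.69, adjusted p = 0.0728). Of the genes that shape the muscle membrane, the caveolin gene cav3 (1.59 ± 0.42, adjusted p = 0.0017, edgeR) and the Popeye-domain gene bves (445.1 ± 31.8 CPM with overexpression and 159.3 ± 27.1 CPM in controls, 1.39 ± 0.19, adjusted p = 3.8e-07) were higher, and nrap was at 0.77 (adjusted p = 0.109). Relative to contractile genes the 6 genes called higher here lay from -0.07 for bves and -0.03 for vdac3 to 0.48 for smdt1b, none of them called. With libraries thinned to the smallest vdac3 was at 0.70 (adjusted p = 0.0079, edgeR).

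**Figure D3:**
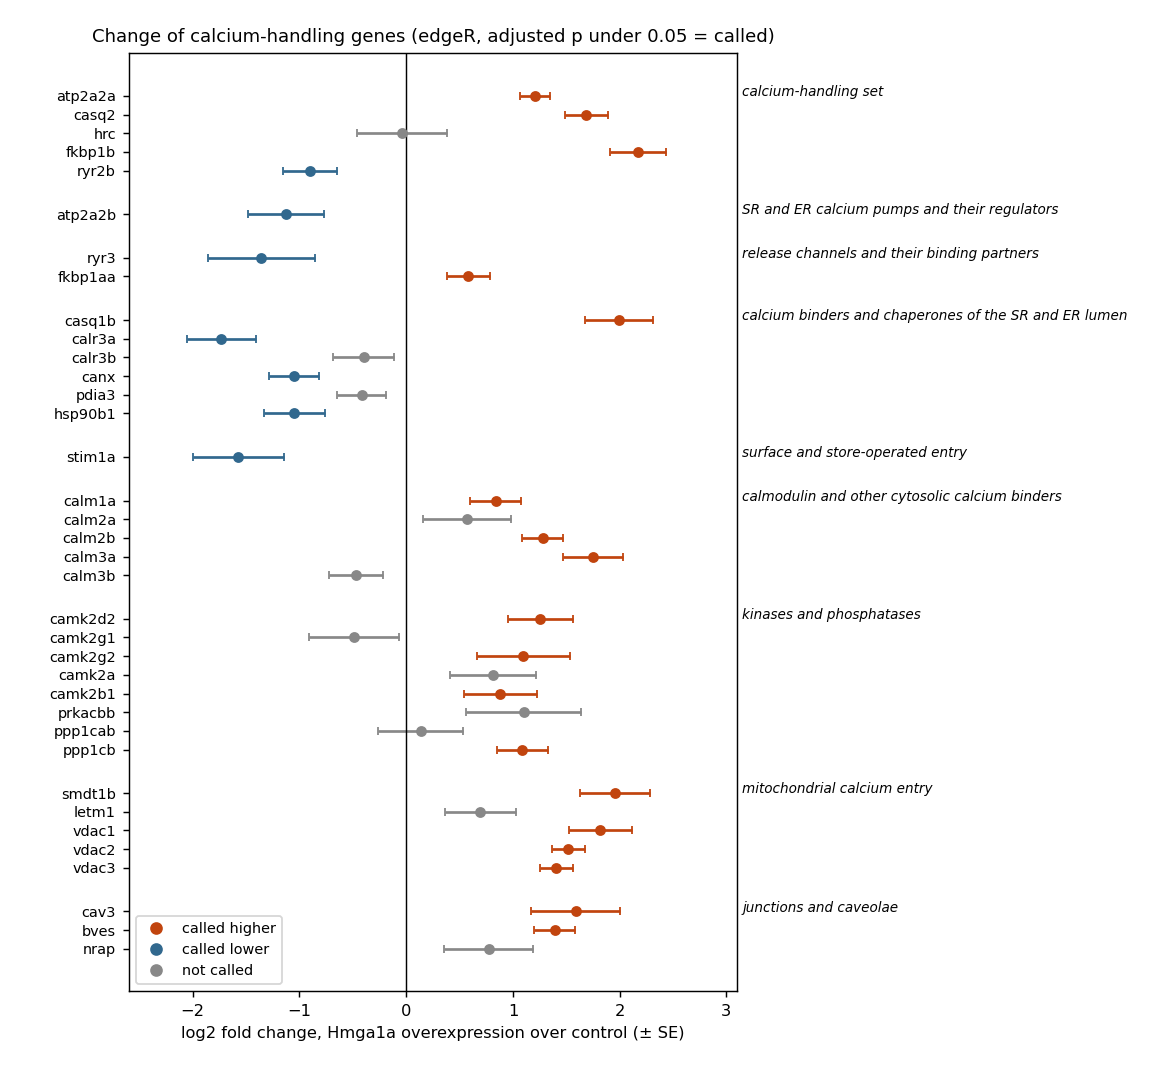
Log2 fold change of Hmga1a overexpression over control with its SE (x axis) for the 5 tested genes of the set and the 31 tested genes of the wider calcium list, grouped by role; orange marks genes called higher, blue lower and grey not called (edgeR, adjusted p under 0.05). Of the wider list 15 are called higher and 6 lower, and those 6 lie in the pump, release channel, lumen and store-entry groups.

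Among 1475 named genes with a mean of at least 50 CPM, those whose profile over the 8 libraries came nearest to that of atp2a2a were cast, which encodes the calpain inhibitor calpastatin (root mean square difference of 0.06 in centred log2 CPM), pabpc1b (0.09), acadm (0.10), ampd3b (0.11) and tuba1b (0.13). For ryr2b they were wls (0.22), zbtb20 (0.23), hnrnpk (0.23), atp6v1ab (0.24) and ywhaqa (0.24), a looser likeness. For hrc they were prkar2aa (0.42), capns1b (0.45), march5 (0.46), sik3 (0.46) and elavl1a (0.46), farther off than for the other 2 genes. Counts a library ran from 47 to 1665 for atp2a2a, 3 to 80 for ryr2b and 3 to 48 for hrc. The part of counting noise in the looser likeness was not tested.

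The authors' deposited table compares 3 overexpression with 3 control libraries. Of the 10 genes 6 have values in the authors' deposited table, which calls 14.2% of its genes higher and 12.2% lower at an adjusted p under 0.05. The authors' deposited table gives log2 fold changes of 1.61 for atp2a2a (adjusted p = 3.5e-24), 2.01 for casq2 (4.3e-21) and 2.38 for fkbp1b (8.6e-16). For ryr2b the authors' deposited table gives -0.61 with an adjusted p of 0.0844, which does not pass 0.05, and for hrc 0.48 with 0.576. Refitted on those 6 libraries, ryr2b was at -0.88 (adjusted p = 0.0055, edgeR). The refit tested 2661 genes and the authors' deposited table holds 7998, so the adjusted p-values cover different sets of genes. In the same refit atp2a2a was at 1.35, casq2 at 1.75, fkbp1b at 2.13 and hrc at 0.24. Each of these values, ryr2b included, lay below the deposited value by a similar amount on the log2 scale, and the reason was not tested.

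**Figure D4:**
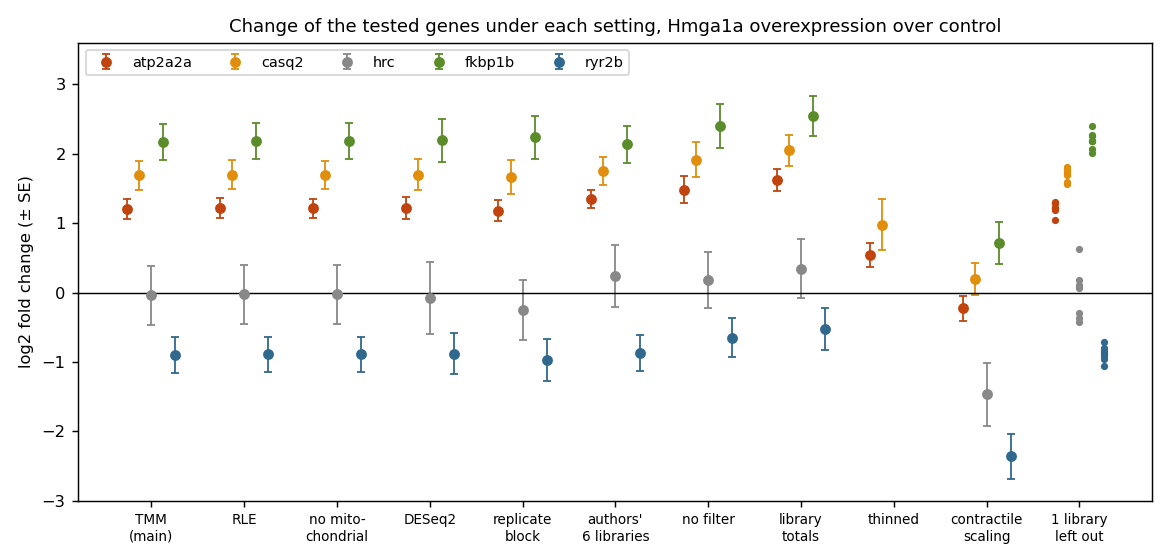
Log2 fold change of Hmga1a overexpression over control with its SE (y axis) for the 5 tested genes under each processing setting (x axis); the last column shows, without error bars, the 8 fits with 1 library left out. With 5 genes tested their order was the same in each setting, and scaling on contractile genes moved all 5 down, with atp2a2a at -0.23 and fkbp1b at 0.71.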

How the data were processed

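Bulk RNA sequencing of polyadenylated RNA was compared between 4 Hmga1a overexpression and 4 control libraries, grouped by sample title. The authors deposited estimated counts per gene: molecule numbers after correction for reused identifiers. The values themselves show this: with 4096 possible identifiers 100% of 62181 non-zero values turn back into whole numbers (tolerance 0.01). Of 21301 entries 67 are spike-in RNAs and were left out. The submitters' processing notes name danRer11 as a build and edgeR as a tool. Not given in the sources used here: aligner, counter, annotation, strand use. The authors also deposited a comparison with log2 fold changes, p-values and adjusted p-values per gene, per the file headers. Its count columns equal overexpression libraries 2, 3 and 4 and controls 1, 3 and 4 (tolerance 1e-06).

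Counts were rounded and tested with edgeR 4.0.16 under R 4.3.3 (filterByExpr with a minimum count of 10, TMM, robust quasi-likelihood fit, Benjamini-Hochberg adjustment over all 2501 genes, threshold 0.05); DESeq2 1.42.0 was an alternative. "Relative to contractile genes" means libraries scaled on the mean log level of 9 contractile genes, a scaling that takes out any shared change of these genes. The median of all genes then shifted by -1.47 on the log2 scale. With library totals alone it shifted by 0.37, and with libraries thinned to the smallest by -0.61. The share of called genes that were higher was 51.0% under TMM, 2.16% under contractile scaling and 66.8% under library totals alone. Ratios had 1 count added to each gene. Likeness used log2 CPM with a prior count of 2. Within groups, the 12 pairs of libraries differed by more than sampling noise (chi-square per degree of freedom 3.19 to 11.2), so none was a mere resampling of another. Separate preparations of the same cells can also differ by more than sampling noise. The values therefore do not show whether libraries came from separate fish.

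The genes and lists were chosen with earlier results of these data known. Genes named are all 10 members, all called genes of the wider list and the 5 nearest profiles of atp2a2a and of each tested member with a negative log2 fold change; uncalled genes of the wider list, marker genes and the ratios to tnnt2a were added after their values were seen. Of the 10 symbols 9 matched RefSeq by symbol or synonym. No sequences are printed.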

Additional observations from a re-analysis of the deposited data

Results flagged for a closer look

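A library far from the other 3 of its group was looked for in 60 groups of values, where chance marks about 1 in 20. It was found in 2, both in control 2, the smallest library. The gene camk2b1 was at 0 CPM in control 2 and at 47.8 to 48.2 CPM in the other controls (gap over range 0.992). The log2 ratio of casq2 to ryr2b was 1.17 in control 2, above the other controls (0.866); it rests there on 8 and 3 counts, and without control 2 the difference between overexpression and control was 2.75 in place of 2.34.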

How the results depend on the processing

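The 10 genes gave 3 higher and 1 lower calls in all 8 fits with a library left out, and with RLE size factors, without mitochondrial genes, with DESeq2 and with the authors' 6 libraries (23.6% to 30.8% of all genes tested called higher and 25.1% to 30.3% lower over 13 settings). Lower calls of the set were 0 with library totals alone (0 at an unadjusted p under 0.05, edgeR), with no filter (1 unadjusted) and with libraries thinned to the smallest (0 unadjusted), where ryr2b, fkbp1b and hrc had too few counts. With contractile scaling the set had 1 higher and 2 lower calls and the wider list 0 and 12. In that setting 1.52% of all genes tested were called higher and 68.9% lower. The wider list had 3 lower calls under library totals alone. When thinned, 7 of its genes and 2 of the set had enough counts to be tested, and the wider list had 4 higher and 1 lower calls. Of genes called higher, those that changed sign with contractile scaling were atp2a2a (-0.23), fkbp1aa (-0.88), calm1a (-0.65), calm2b (-0.17), camk2d2 (-0.23), camk2g2 (-0.36), camk2b1 (-0.59), ppp1cb (-0.41), vdac3 (-0.03) and bves (-0.072); fkbp1aa was at -0.41 when thinned. The uncalled hrc was at 0.34 with library totals alone, 0.18 with no filter, 0.24 with the authors' 6 libraries and -0.43 to 0.63 with a library left out. All genes moved in these settings too. Their median shift from the main fit was -1.47 with contractile scaling and -0.61 when thinned. It was 0.37 with library totals alone, 0.235 with no filter and 0.036 with the authors' 6 libraries. Whether any gene moved beyond this general shift was not tested. The replicate block, which treats equal library numbers as pairs, gave 3 higher and 1 lower calls, and 14 and 6 in the wider list (ryr2b -0.97, adjusted p = 0.0067, edgeR; camk2g2 1.05, 0.0746, and camk2b1 0.86, 0.0549, did not pass); same-numbered libraries correlated at -0.06 to 0.01, and 0 of 4 controls was best matched by its own number, so the numbers were not taken as pairs.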
